A study of Rattus norvegicus with 4 samples.

Results

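The insulin-like growth factor (IGF) system was examined in glomeruli of 4 rats given Adriamycin (ADR). The genes were matched by symbol: the ligand gene Igf1, the receptor genes Igf1r and Igf2r, and the binding protein genes Igfbp2 to Igfbp7. The list was drawn up with earlier results of these data known. Of these 9 genes, 8 had values among the 13261 genes used, and Igfbp6 was not analysed here. All 8 were at or above 1 log2 CPM in every animal (CPM is a gene's reads scaled to the library total, here put on a log2 scale). Igf1r and Igf2r were both highest in replicate 1 and lowest in replicate 3, Igf1 and Igfbp3 showed the opposite order at both ends, and Igfbp5 and Igfbp7 were both lowest in replicate 2 and highest in replicate 4. Igfbp2 and Igfbp4 differed least between animals.

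IGF1 is a secreted growth factor that signals through IGF1R, a receptor tyrosine kinase close in structure to the insulin receptor. IGF2R, also known as the cation-independent mannose-6-phosphate receptor, has no kinase domain; it takes IGF2 up for degradation and sorts lysosomal enzymes. The high-affinity binding proteins IGFBP1 to IGFBP6 hold IGFs in circulation and in tissue and can restrain or prolong their action, and proteases such as PAPPA2 release the ligand from some of them. IGFBP7 binds IGFs weakly and is known as a protein of the vascular matrix. Glomeruli hold podocytes, endothelial cells and mesangial cells, and the IGF genes are known to differ between these cell types in expression.

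The 4 animals formed a single group of male Wistar rats of about 150 to 175 g, which received ADR (doxorubicin) intravenously; the model injures podocytes and causes proteinuria. Age and dose were not given in the sources used here, and harvest on day 11 or day 21 is named without saying which applied. Glomeruli were obtained by sieving and polyadenylated RNA was sequenced over 2 lanes. Untreated rats and rats given other agents were not analysed here, so no value below is a change caused by ADR. Nothing in the labels states that the samples came from separate animals; they are listed separately and are called animals or replicates 1 to 4, numbered by their order of listing, and p-values measure only the spread between these samples.

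Replicates 1 to 4 held between 13566962 and 16207027 reads in the genes used, so that a single read was worth 0.0617 to 0.0737 CPM. The protein-coding mitochondrial genes took 7.46% to 12.5% of reads. All 10 podocyte markers had values, with a summed level of 5649 to 10096.5 CPM over the animals, as did 8 of 9 endothelial markers, at 6665 to 8802 CPM, and 7 of 7 mesangial markers, at 1862 to 2362 CPM. Of the mesangial sum, Des alone held from 701 CPM in replicate 1 to 1117 CPM in replicate 2. Proximal tubule markers were also present (9 of 9), at 2942 to 5978 CPM. No marker had 0 reads in any animal. In whole glomeruli, fewer cells of a type and less RNA per cell cannot be told apart. Since mRNA lengths were not among the reference tables, levels are given per gene and not ranked between genes; ratios between genes are compared only across animals, where length cancels.

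Sequence upstream of 5 of the genes is shown because their values are set against each other below. Igfbp5 and Igfbp7 shared a pattern over the animals, Igfbp3 and Igfbp1 are neighbours on the chromosome with different patterns, and Igf2r is the receptor counted with more reads. The stretches come from RefSeq (build GRCr8, matched by symbol) and end at the base before the gene's first annotated start. Capitals mark matches, on either strand, to 4 motifs: the TATA box (TATAAA), the GC box (GGGCGG), the E-box (CACGTG) and an insulin response motif (CAAAACA).
Igf2r, chr1:50526628-50526877, plus strand: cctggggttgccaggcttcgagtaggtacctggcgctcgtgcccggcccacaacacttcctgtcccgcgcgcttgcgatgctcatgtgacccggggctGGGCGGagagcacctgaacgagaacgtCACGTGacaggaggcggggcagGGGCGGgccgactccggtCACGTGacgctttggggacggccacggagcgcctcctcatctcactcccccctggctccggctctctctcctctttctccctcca
Igfbp5, chr9:81914188-81914437, minus strand: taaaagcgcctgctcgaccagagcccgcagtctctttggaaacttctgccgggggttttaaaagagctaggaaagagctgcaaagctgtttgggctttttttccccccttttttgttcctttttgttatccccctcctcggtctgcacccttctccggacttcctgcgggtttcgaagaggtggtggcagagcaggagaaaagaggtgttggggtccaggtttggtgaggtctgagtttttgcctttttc
Igfbp7, chr14:31091486-31091680, plus strand: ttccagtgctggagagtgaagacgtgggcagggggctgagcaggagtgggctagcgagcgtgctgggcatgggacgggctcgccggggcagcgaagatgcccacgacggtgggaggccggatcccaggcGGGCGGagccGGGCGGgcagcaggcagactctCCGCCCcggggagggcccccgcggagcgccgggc
Igfbp3, chr14:86277945-86278194, minus strand: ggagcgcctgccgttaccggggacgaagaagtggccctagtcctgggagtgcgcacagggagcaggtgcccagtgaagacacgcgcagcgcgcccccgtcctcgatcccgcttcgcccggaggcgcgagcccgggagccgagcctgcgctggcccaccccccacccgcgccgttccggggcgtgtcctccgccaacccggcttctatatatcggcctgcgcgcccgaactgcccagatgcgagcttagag
Igfbp1, chr14:86261027-86261276, plus strand: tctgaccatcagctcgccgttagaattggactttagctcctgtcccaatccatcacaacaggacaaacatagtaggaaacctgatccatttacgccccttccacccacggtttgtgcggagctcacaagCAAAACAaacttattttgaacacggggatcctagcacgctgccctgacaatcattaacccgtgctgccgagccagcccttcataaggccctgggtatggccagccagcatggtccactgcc

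The stretch of Igf2r held 2 E-boxes and 2 GC boxes; over 33469 RefSeq promoters, 5.59% held an E-box and 30.5% a GC box in a window of 250 bases. Igfbp7 held 3 GC boxes in 195 bases, against 23.3% of promoters with at least 1 in a window of that length. The windows of 195 bases stopped short of each promoter's own start, while the Igfbp7 stretch ended at the gene's first annotated start. Igfbp1 held the insulin response motif once, a motif present in 5.46% of 250-base windows. The TATA box as spelled was in none of the 5 stretches and in 12.9% of 250-base windows. Neither Igfbp5 nor Igfbp3 matched any of the 4 motifs, which says only that those letters are not in the window. GC content was 51.6% for Igfbp5 and 75.4% for Igfbp7. The median over all promoters was 51.2% in windows of 250 bases and 50.8% in windows of 195 bases.

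Igf1 (ENSRNOG00000004517), the ligand, was counted with few reads. It had 37, 77, 88 and 71 reads in replicates 1 to 4, or 2.76, 4.78, 5.77 and 4.69 CPM. Replicate 1 was the low animal, and the exact 95% Poisson interval of its level, 1.92 to 3.76 CPM, did not overlap that of replicate 3, 4.60 to 7.06 CPM. It overlapped those of replicate 2, 3.75 to 5.94 CPM, and replicate 4, 3.64 to 5.87 CPM, at their edges. The mean was 4.50 ± 1.26 CPM (SD, n = 4). These intervals cover counting error only. Circulating IGF1 is known to come mainly from liver, which was not measured here.

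Igf1r (ENSRNOG00000014187), the signalling receptor, had 28.4, 18.0, 16.6 and 21.1 CPM in replicates 1 to 4, from 255 to 385 reads. Its mean was 21.0 ± 5.25 CPM (SD, n = 4). Igf2r (ENSRNOG00000014997), the scavenging and sorting receptor, had 462, 283, 267 and 324 CPM, from 4094 to 6267 reads, with a mean of 334 ± 88.6 CPM (SD, n = 4). Both receptors put the animals in the same order, with replicate 1 highest, then replicates 4, 2 and 3. The highest animal exceeded the lowest 1.71-fold for Igf1r and 1.73-fold for Igf2r. The plot of CPM by animal shows the order for each gene.

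**Figure D1:**
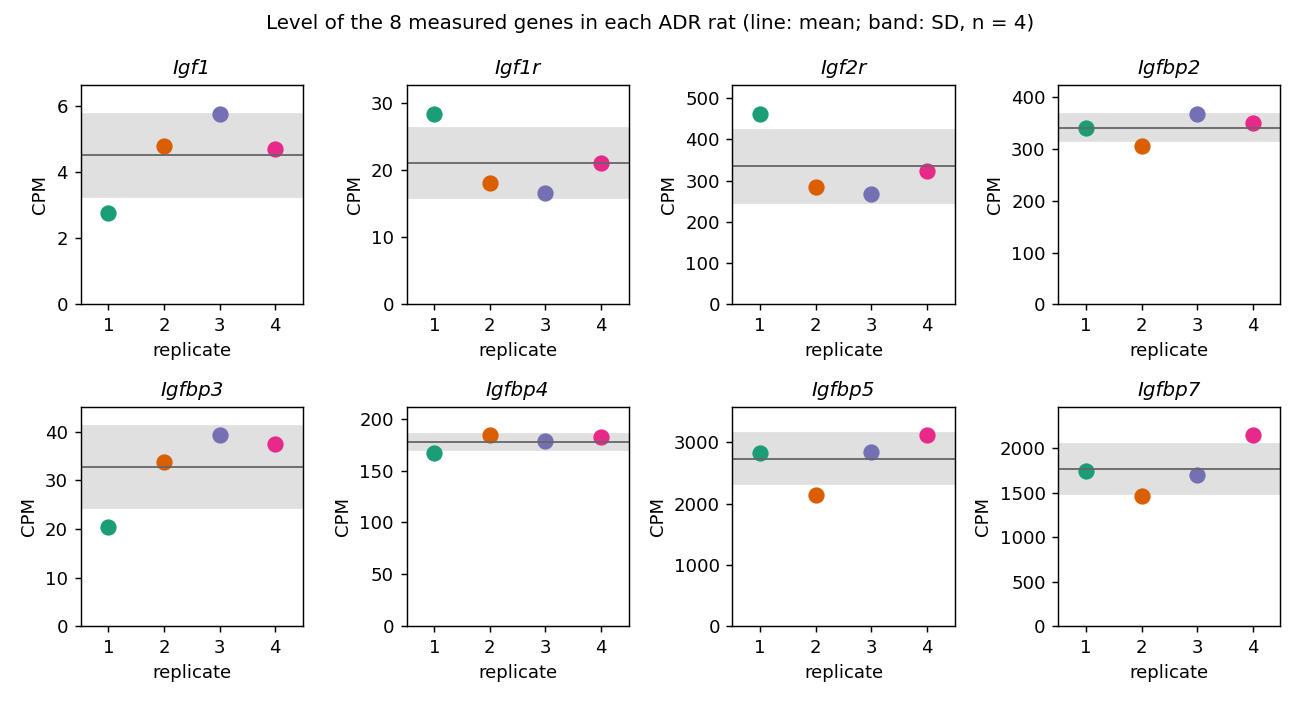
Level of each of the 8 measured genes in CPM (vertical axis, starting at 0) in replicates 1 to 4 (horizontal axis); points are animals, the line is the mean and the band the SD over 4 animals. Igf1r and Igf2r are highest in replicate 1, where Igf1 and Igfbp3 are lowest, while Igfbp4 stays between 167 and 184 CPM.

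The ratio of Igf1r to Igf2r reads was 0.0614, 0.0636, 0.0623 and 0.0650 in replicates 1 to 4. It changed 1.06-fold between the lowest and highest animal, and its SD on the log2 scale was 0.04. The counting standard error of the ratio alone was 0.08 to 0.09 in the animals. The differences in this ratio were thus smaller than counting error, while the SD of each gene was 0.34 for Igf1r and 0.35 for Igf2r. Of the 28 pairs of measured genes, this pair had the smallest SD of the log2 ratio; the median over the pairs was 0.38. This and the other pairs set out here were picked after their values were seen.

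Among the binding proteins, Igfbp3 (ENSRNOG00000061910), the main carrier of IGFs in blood, had 20.5, 33.8, 39.3 and 37.5 CPM in replicates 1 to 4, from 277 to 602 reads. Its mean was 32.7 ± 8.50 CPM (SD, n = 4), and replicate 1 was again the low animal. The ratio of Igf1 to Igfbp3 reads was 0.134, 0.141, 0.146 and 0.124, with an SD of 0.10 on the log2 scale against a counting standard error of 0.16 to 0.25. At this depth no difference in that ratio between animals was detectable. By contrast, the ratio of Igf1 to Igf2r changed 3.61-fold between replicates 1 and 3, the widest range of the 28 pairs.

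Igfbp5 (ENSRNOG00000017206), a binding protein that attaches to extracellular matrix, had 2831, 2147, 2843 and 3117 CPM in replicates 1 to 4. Its mean was 2735 ± 413 CPM (SD, n = 4), carried by at least 34805 reads in each animal. Igfbp7 (ENSRNOG00000002050) had 1747, 1460, 1703 and 2143 CPM, with a mean of 1763 ± 283 CPM (SD, n = 4). Replicate 2 was lowest and replicate 4 highest for both genes. Replicate 2 was also the library with the highest mitochondrial share, 12.5% of reads against 7.46%, 9.34% and 7.56% in replicates 1, 3 and 4; with totals that leave out mitochondrial genes it was still the lowest for both. The ratio of Igfbp5 to Igfbp7 reads was 1.62, 1.47, 1.67 and 1.45, an SD of 0.10 on the log2 scale. With a counting standard error of 0.01, the ratio differed between animals by more than counting error, although less than either gene, whose SDs were 0.23 and 0.23.

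Igfbp2 (ENSRNOG00000016957), which carries an integrin-binding motif, had 339, 306, 367 and 349 CPM in replicates 1 to 4, a mean of 340 ± 25.8 CPM (SD, n = 4). Igfbp4 (ENSRNOG00000010635), an inhibitory binding protein, had 167, 184, 178 and 182 CPM, a mean of 178 ± 7.81 CPM (SD, n = 4). The highest animal exceeded the lowest 1.20-fold for Igfbp2 and 1.10-fold for Igfbp4. Their ratio had an SD of 0.14 on the log2 scale against a counting standard error of 0.03 to 0.04. The plot of ratios sets these pairs side by side.

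**Figure D2:**
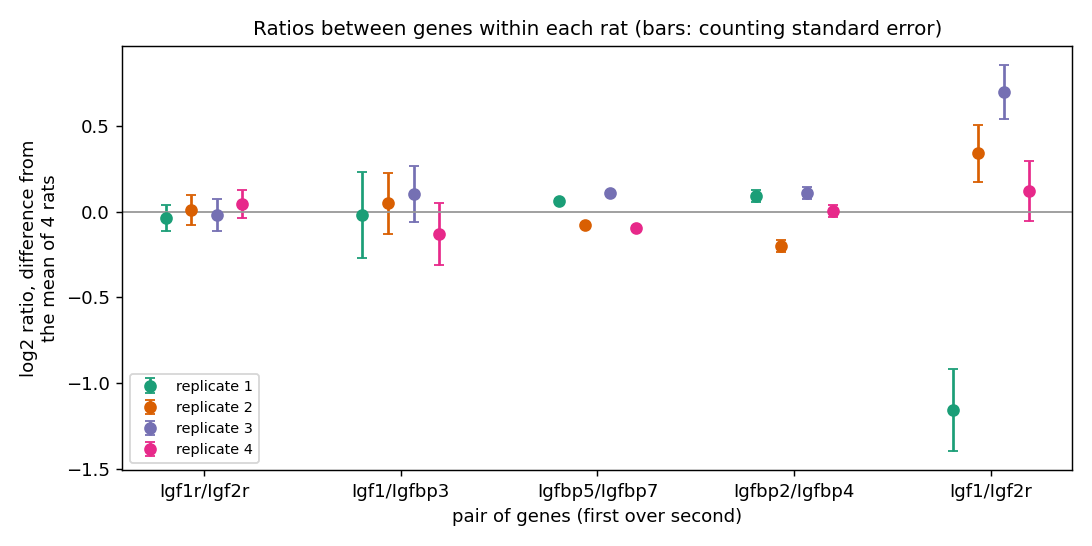
Log2 ratio of reads between genes of 5 pairs in each animal, as the difference from the mean over 4 animals (vertical axis); points are replicates 1 to 4 and bars the counting standard error. The points for Igf1r/Igf2r and Igf1/Igfbp3 lie close to 0 relative to their bars, whereas Igf1/Igf2r runs from -1.16 in replicate 1 to 0.70 in replicate 3.

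The order of the animals was shared with many other genes. Replicate 1 was highest and replicate 3 lowest for 10.6% of all 13261 genes, as it was for Igf1r and Igf2r. Replicate 3 was highest and replicate 1 lowest for 16.2%, as for Igf1 and Igfbp3. Replicate 4 was highest and replicate 2 lowest for 10.4%, as for Igfbp5 and Igfbp7. Igfbp2 was highest in replicate 3 and lowest in replicate 2, as 7.8% of genes were, and Igfbp4 was highest in replicate 2 and lowest in replicate 1, as 12.2% were. The highest and the lowest animal of the 8 genes were the same under the 3 other scalings between samples that were tried, as they were for 34 of the 52 other pathway genes described below. The same count was not made over all genes.

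Spread between animals was first tested against counting error. Reads of all 8 genes varied beyond Poisson sampling (chi-square test on recovered reads, adjusted over all genes), as did 69.5% of all genes. The chi-square statistic with 3 degrees of freedom was 14.6 for Igfbp4 and 14.9 for Igf1, the smallest of the 8, and 2979 for Igfbp5, where depth was greatest. Adjusted p-values of the chi-square test were 0.00391 for Igfbp4, 0.00351 for Igf1, 1.41e-11 for Igf1r and 4.67e-19 for Igfbp3. After subtraction of counting error, the coefficient of variation was between 24.3% and 26.5% for Igf1, Igf1r, Igf2r and Igfbp3. It was 16.04% for Igfbp7, 15.1% for Igfbp5, 7.46% for Igfbp2 and 3.95% for Igfbp4. Without replicate 1, 5 of the 8 genes passed, as did 7326 of the 13261 genes: the adjusted chi-square p-values were 0.417 for Igf1, 0.0609 for Igfbp3 and 0.567 for Igfbp4.

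Next, each gene's variance was set against that of genes of like level with limma. None of the 8 passed at an adjusted p under 0.05 and 0 did at an unadjusted p under 0.05, against 0.0% and 5.46% (724) of all genes. The smallest unadjusted p of limma was 0.0514, for Igfbp3, with an adjusted p of 0.912. The SD of log2 CPM over the 4 animals was 0.46 for Igf1, 0.43 for Igfbp3, 0.11 for Igfbp2 and 0.06 for Igfbp4. For 6 of the 8 it was above 0.18, the median over all genes. Among all genes, 8.45% had a larger SD than Igf1, 16.3% a larger SD than Igf2r and 93.4% a larger SD than Igfbp4.

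For none of the 8 genes did an animal stand apart from the others by Dixon's criterion at 95%, which 5.08% of all genes met. For each gene the SD is also given without the animal whose removal lowered it most, a choice that lowers the SD by construction. Without replicate 1 it was 0.16 for Igf1, 0.17 for Igf1r, 0.14 for Igf2r, 0.11 for Igfbp3 and 0.02 for Igfbp4. Without replicate 2 it was 0.08 for Igfbp5 and 0.06 for Igfbp2, and without replicate 4 it was 0.14 for Igfbp7. The plot of spread against level places the 8 genes among all others.

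**Figure D3:**
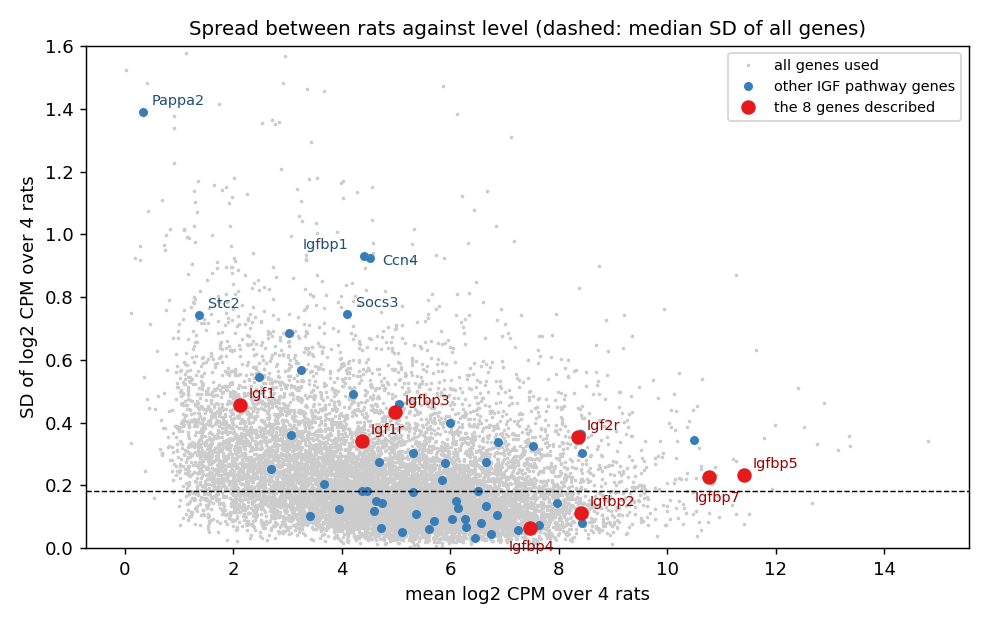
SD of log2 CPM over 4 animals (vertical axis) against mean log2 CPM (horizontal axis) for all genes used (grey), the 8 genes described (red) and the other IGF pathway genes (blue); the dashed line is the median SD, 0.18, and 12 genes above an SD of 1.6 are not drawn. Igfbp4 and Igfbp2 lie below the line and the other 6 above it.

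Marker genes of glomerular and other kidney cells moved with these patterns. For each list the mean of log2(CPM + 1) was taken in each animal and centred over the animals. Deviations of the single genes were taken on log2 CPM, so at low levels the distances below compare unlike scales. For Igf1 in replicate 1 the deviation was -0.65 on log2 CPM and -0.52 on log2(CPM + 1). Igfbp5 and Igfbp7 lay nearest to the mesangial list of 7 genes, with root mean square differences of 0.05 and 0.05 log2 units over the 4 animals. That list deviated by 0.02, -0.32, 0.03 and 0.28 in replicates 1 to 4, and Igfbp7 by 0.00, -0.26, -0.04 and 0.30. Of the 7 mesangial genes, 5 were lowest in replicate 2 and highest in replicate 4; Cspg4 and Des were the others, and Des, an intermediate filament gene, was highest in replicate 2. All 10 podocyte genes were lowest in replicate 2 as well, but highest in replicate 1, an order held by 13.4% of all genes. The part of cell makeup in the differences of Igfbp5 and Igfbp7 was not tested.

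Igf1r and Igf2r lay nearest to the proximal tubule list of 9 genes, with root mean square differences of 0.19 and 0.20. The parietal epithelial list followed at 0.26 and 0.28, and the podocyte list at 0.29 and 0.29. The proximal tubule list deviated by 0.49 in replicate 1, 0.04 in replicate 2, -0.60 in replicate 3 and 0.08 in replicate 4. Its summed level ran from 2942 CPM in replicate 3 to 5978 CPM in replicate 1. Replicate 1 was highest and replicate 3 lowest for 7 of its 9 genes, including Lrp2, the endocytic receptor megalin. In replicate 2 both receptors deviated downward, Igf1r by -0.19 and Igf2r by -0.20, where the tubular list did not. Whether RNA of tubular, parietal or podocyte cells had a part in the receptor values was not tested.

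Igf1 and Igfbp3 lay nearest to the interstitial fibroblast list, with root mean square differences of 0.12 and 0.17, and farthest from the proximal tubule list, at 0.76 and 0.73. Only 3 of the 6 fibroblast markers had values, and 1 of the 3, Col3a1, was highest in replicate 3 and lowest in replicate 1. Col1a1, another of the 3, deviated upward by 0.26 in replicate 1, where Igf1 and Igfbp3 were lowest. The order of Igf1 was also found for both erythroid markers, 4 of 8 endothelial markers and 4 of 6 immune markers. The erythroid list lay at 0.18 from Igf1 and 0.22 from Igfbp3, and the smooth muscle list, lowest in replicate 1 in all 3 genes, at 0.19 and 0.20. The immune list lay at 0.21 from Igf1 and 0.21 from Igfbp3. Igfbp2 and Igfbp4 lay nearest to the distal nephron list, whose mean deviated by at most 0.04 in any animal while its genes went opposite ways: in replicate 2, Umod deviated by -0.47 and Aqp2 by 0.62. Nearness to that flat mean restates the small spread of Igfbp2 and Igfbp4. The part of these cell types was not tested.

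**Figure D4:**
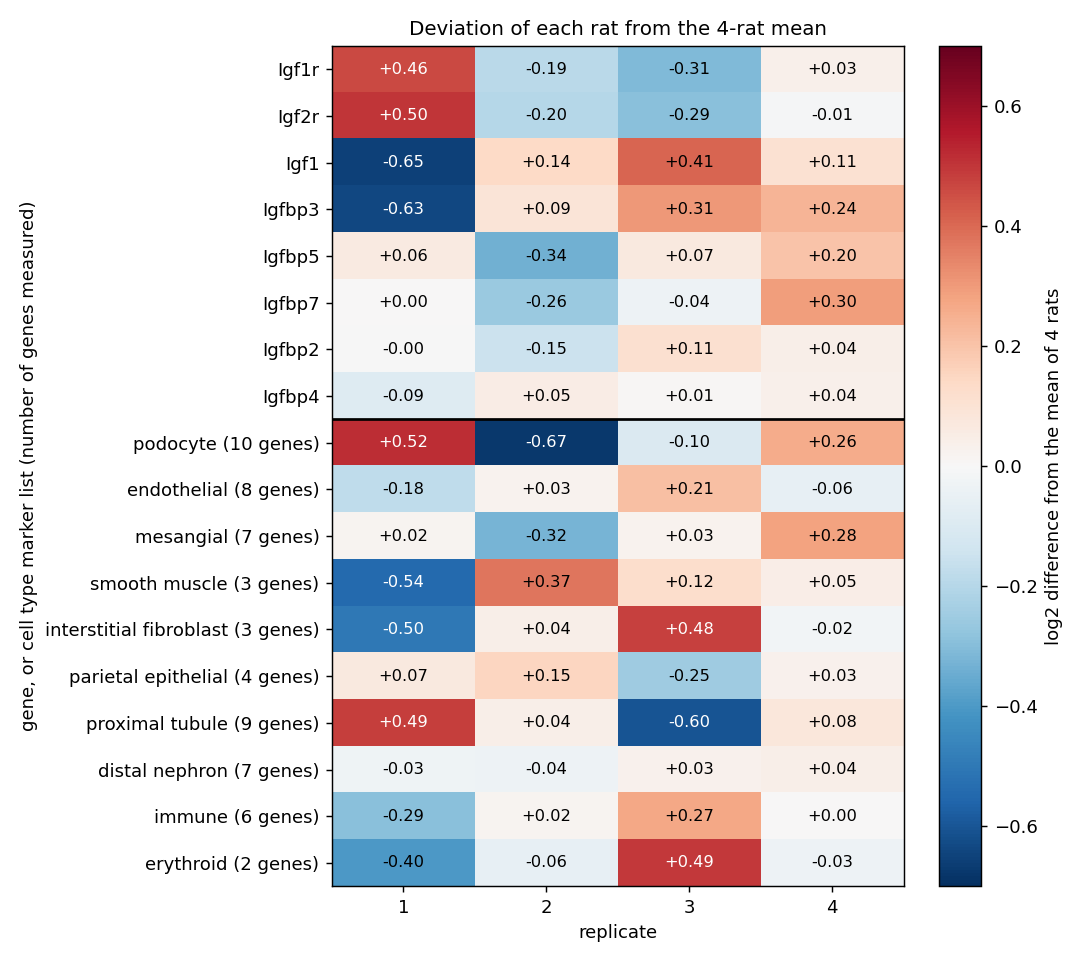
Deviation of each animal (horizontal axis, replicates 1 to 4) from the mean of the 4 animals, in log2 units (colour and printed value), for the 8 genes (top) and for the mean of each cell type marker list (bottom). The genes are on log2 CPM and the lists on log2(CPM + 1). Igfbp5 and Igfbp7 share their low value in replicate 2 and high value in replicate 4 with the mesangial list, and Igf1r and Igf2r their high value in replicate 1 with the proximal tubule and podocyte lists.

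Other genes whose pattern lay closest to that of a member were sought among 11179 genes with a mean of at least 100 reads. The nearest to Igf2r was Igfals, which encodes the acid-labile subunit that joins IGF1 and IGFBP3 in the blood, at a root mean square difference of 0.01 log2 units over 4 animals, followed by Gpr137b, a lysosomal membrane protein gene, at 0.03. Igf1r was followed by Scamp5 and Hspa4l, both at 0.02, Igf1 by Apbb1ip at 0.01 and Arrdc2 at 0.02, and Igfbp3 by LOC102549714 and Nrn1, both at 0.05. The genes closest to Igfbp5 were Peg3, an imprinted gene, at 0.01 and Map6 at 0.02. Dnajc27 and Mmab were closest to Igfbp7, each at 0.01. Each of these differences was smaller than the counting standard error of the comparison, 0.04 to 0.28 log2 units per animal, so the matches are closer than the reads can resolve. They were picked from many candidates and carry no test.

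The wider pathway was described through 60 further genes, of which 52 had values: growth hormone (GH) axis, receptors, proteases, relatives with an IGFBP domain, and signalling components. Their median SD was 0.18, equal to that of all genes. Reads of 42 of the 52 (80.8%) varied beyond counting error, against 69.5% of all genes. With limma, 0 of the 52 passed at an adjusted p under 0.05, and 7 did at an unadjusted p under 0.05: Ghr, Igfbp1, Pappa2, Ccn4, Irs1, Socs3 and Foxo1. Of all genes, 5.46% did. The smallest adjusted p of limma was 0.912.

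The GH axis genes divided over the patterns. Ghr, the growth hormone receptor, had 50.5, 28.9, 23.9 and 34.3 CPM in replicates 1 to 4 and Igfals had 11.8, 7.25, 6.74 and 8.36 CPM, so both had the order of Igf1r and Igf2r. Stat5a and Stat5b, which carry the GH signal, were lowest in replicate 1 and highest in replicate 3, as Igf1 was. Stat5b averaged 40.1 ± 4.97 CPM (SD, n = 4). Ghr lay nearest to the proximal tubule list, at 0.15 log2 units, and the part of tubular RNA was not tested.

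Igfbp1, a binding protein whose liver transcript is known to be repressed by insulin, was the widest of the binding protein genes. It had 151, 819, 245 and 342 reads in replicates 1 to 4, or 11.2, 50.6, 15.99 and 22.5 CPM. Replicate 2 was high and exceeded replicate 1 by 4.53-fold. Limma gave an unadjusted p of 0.00508 and an adjusted p of 0.912. The nearest marker list, of 3 smooth muscle genes, was 0.55 log2 units away. All 3 had the order of Igfbp1, highest in replicate 2 and lowest in replicate 1, as 12.2% of all genes did. The part of smooth muscle RNA was not tested. Foxo1, a transcription factor restrained by insulin and IGF signalling, had 64.5, 47.5, 92.2 and 58.9 CPM and was lowest in replicate 2.

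All 6 genes for proteases and their inhibitors varied beyond counting error, against 69.5% of all genes. Pappa2, a protease that cleaves IGFBP3 and IGFBP5, had 56, 6, 16 and 21 reads in replicates 1 to 4, or 4.16, 0.401, 1.07 and 1.41 CPM. Stc2, which encodes an inhibitor of PAPPA proteases, had 73, 27, 37 and 30 reads. Replicate 1 was highest and replicate 2 lowest for both, as for Adam9 and Adam12, so that 4 of the 6 had this order, against 13.4% of all genes. All 10 podocyte markers had it too, and the part of podocyte RNA was not tested. Pappa2 and Stc2 rest on few reads. Stc1, the gene of a related inhibitor, ran the other way, with 11.0, 21.6, 21.3 and 22.5 CPM, and was lowest in replicate 1. Htra1, a secreted serine protease gene, averaged 345 ± 18.8 CPM (SD, n = 4) and was also lowest in replicate 1, at 317 CPM.

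Reads of all 6 measured relatives with an IGFBP domain varied beyond counting error, against 69.5% of all genes. Replicate 2 was lowest for 3 of the 6 and replicate 1 for the other 3, Ccn1, Ccn3 and Esm1; over all genes these shares were 31.5% and 35.0%. Ccn4 had 43.7, 10.4, 18.3 and 33.2 CPM in replicates 1 to 4, Crim1 averaged 349 ± 84.2 CPM and Ccn2, a matricellular gene, 1459 ± 336 CPM (SD, n = 4), the 3 genes lowest in replicate 2. Ccn3 was lowest in replicate 1, at 3.72 CPM, and highest in replicate 4, at 9.08 CPM. In replicate 2 the podocyte list deviated by -0.67 and the mesangial list by -0.32, and the part of either was not tested.

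Receptors other than the 2 described included Lrp1, an endocytic receptor that binds IGFBP3, at 351 ± 67.1 CPM (SD, n = 4), and Insrr, the insulin receptor-related receptor, at 6.56 ± 1.13 CPM. Inside the cell, the 18 adaptor and kinase genes had a median SD of 0.13 and the 12 brakes and effectors one of 0.11, both below the 0.18 of all genes. Reads of 16 of the 18 and of 6 of the 12 varied beyond counting error, against 69.5% of all genes. Akt1 was at 200.04 ± 10.2 CPM, Shc1 at 152 ± 6.31 CPM, Tsc2 at 107 ± 3.27 CPM, Ptpn1 at 49.0 ± 2.12 CPM and Gigyf2 at 87.3 ± 1.99 CPM (SD, n = 4). The adjusted chi-square p was 0.586 for Gigyf2, 0.313 for Ptpn1 and 0.232 for Tsc2, so no spread beyond counting error was detectable there. Ptpn11, a phosphatase gene of the cascade, averaged 252 ± 25.1 CPM.

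The widest SDs in these groups were 0.74 for the feedback inhibitor gene Socs3 and 0.68 for the docking protein gene Irs1. Irs1 had 14.0, 4.66, 6.87 and 9.87 CPM in replicates 1 to 4. It was lowest in replicate 2, as the podocyte list was. Socs3 had 8.37, 24.6, 16.1 and 25.2 CPM and was lowest in replicate 1, where Igf1 and Igfbp3 were lowest too. Igf2bp2, an RNA-binding protein gene named for its binding of Igf2 mRNA, had 10.6 ± 0.765 CPM (SD, n = 4). Its spread beyond counting error was not detectable, with an adjusted chi-square p of 0.499.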

How the data were processed

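Polyadenylated RNA of sieved glomeruli from 4 ADR rats was sequenced. Per the submitters' processing notes, HISAT2, featureCounts, Subread and limma were used with the build Rnor_6.0; the library kit marks strand, per the labels' protocols, but tool versions and the strand setting of the counting were not given in the sources used here. The deposited table holds log2 values per gene and sample. Their form was read from the values: 2 raised to each was a whole number of reads plus 0.5, times a constant of the sample (100% of values whole within 0.01 reads; largest deviation 0.00131), that is log2 CPM. Of 13265 rows, 4 with displaced cells were left out; 0 value columns belonged to no sample.

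The design called for a chi-square test of whole reads (3 degrees of freedom) and an intercept-only limma fit (3.58.1, R 4.3.3) on log2(CPM + 1), testing residual variance against the abundance trend. P-values were adjusted by Benjamini-Hochberg over all genes, threshold 0.05. Planned comparisons per mRNA length could not be made without lengths; the pathway genes named as highest or lowest of a group were taken by CPM. Also named were the 5 largest and 5 smallest SDs and the 2 nearest patterns of each varying member. Further genes were picked after their values were seen: those under an unadjusted limma p of 0.05, with Adam9, Adam12, Ccn1, Crim1, Esm1 and Stat5a. A gene that the rule names is not reported here. The members and lists were chosen with earlier results of these data known.

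On simulated counts for 13261 genes, reads were recovered exactly, and limma called 23% of 100 genes changed 2-fold in a single animal, 100% of 100 changed 4-fold, and 0 of 13061 unchanged genes. The simulation gave every gene the same spread (coefficient of variation 11%), so these shares do not carry over to the real genes, whose spreads differ: limma called 0 of the 13261, including genes with over 4-fold ranges.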

Additional observations from a re-analysis of the deposited data

Results flagged for a closer look

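Among the 8 genes and the 52 other pathway genes, 3 (5.0%) had an animal far from the other animals by Dixon's criterion, where chance gives about 1 in 20 and 5.08% of all genes met it. Stc1 was low in replicate 1, with the gap to the nearest animal taking 0.923 of the whole log2 range. Foxo4, a forkhead transcription factor gene, was low in replicate 2, at 70.0 CPM against 78.5 to 80.1 CPM in the other animals, with a gap of 0.851 of the range. Pik3r2, a regulatory subunit of PI3 kinase, was high in replicate 2, at 84.2 CPM against 76.1 to 77.3 CPM, with a gap of 0.841 of the range. Its adjusted chi-square p was 0.0506, so its spread beyond counting error was not detectable.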

How the results depend on the processing

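Scalings by median-of-ratios factors, by trimmed-mean factors and by totals without mitochondrial genes, the low-value filter, other pseudocounts, the deposited log2 values, a robust prior and leaving out each animal were tried as they applied. The number of the 8 genes varying beyond counting error ran from 5 to 8 when each animal was left out, with 5 without replicate 1, and was 8 otherwise; fewer samples were tested there, and over all genes the number fell from 9222 to 7326. Limma called 0 of the 8 under each of 12 alternatives, with 0 or 1 at an unadjusted p under 0.05. Among the 348 values obtained under other settings, 334 were unaltered by the criteria used; 11 shifted by more, 8 of them SDs with an animal left out, and 3 adjusted p-values rose past 0.05, none in another direction. Totals without mitochondrial genes raised the means of all 8 genes by 0.14 log2, which exceeded the spread between animals only for Igfbp2 (8.55) and Igfbp4 (7.61). The highest or lowest animal changed with the scaling for 18 of the 52 pathway genes, among them Socs3, whose highest animal was replicate 4 or 2. The comparisons per length and their alternatives were not run. No paired analysis was possible because the samples analysed form a single group. Depth limits Igf1, Pappa2 and Stc2 most.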

Other observations

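In RefSeq's order of genes, Igfbp1 and Igfbp3 follow each other on chromosome 14 with 0 genes between them, and Igfbp2 and Igfbp5 do so on chromosome 9. The ratio of Igfbp3 to Igfbp1 reads was 1.83, 0.668, 2.46 and 1.67 in replicates 1 to 4, a range of 3.67-fold. The ratio of Igfbp2 to Igfbp5 reads was 0.120, 0.142, 0.129 and 0.112, a range of 1.27-fold. The first pair thus differed more between animals in its ratio than the second, each beyond its counting standard error of at most 0.15 and 0.02 on the log2 scale.

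The gene nearest in pattern to Igfbp1, picked after its values were seen, was Angptl4, a secreted inhibitor of lipoprotein lipase, at a root mean square difference of 0.14 log2 units over the 4 animals. Next was Spp1, the osteopontin gene, at 0.18. Angptl4 had 2.64, 4.50, 2.89 and 3.28 log2 CPM and Spp1 9.10, 10.88, 9.61 and 10.15 log2 CPM in replicates 1 to 4. Both were highest in replicate 2 and lowest in replicate 1, as Igfbp1 and 12.2% of all genes were. They were picked for nearness to Igfbp1, so the shared order is no separate result. The counting standard error of the comparison was 0.09 to 0.20 log2 units for Angptl4 and 0.05 to 0.12 for Spp1.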
